A study of Mus musculus with 15 samples.

Results

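Heat shock proteins and DnaJ chaperones were followed in isolated left ventricular cardiomyocytes after exposure of mice to iron ions. The members were chosen by symbol: every gene named alone on its probe set whose symbol starts with Hspa, Hspb, Hspd, Hspe, Hsph, Hsp90a or Dnaj. Hspa5, Dnajb9, Dnajb11, Dnajc3, Hspbp1 and Hspbap1 were left out of the members and stand among the other chaperone genes described further on. This gave 65 of 19937 single-symbol genes, each represented by its probe set with the highest mean over 15 arrays. Of the 65, 54 lay in the upper part of the signal range that was tested, and 11 lay below it.

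The mice were male C57Bl/6NT, 8 to 9 months old, and received a whole-body exposure to 0.15 Gy of iron ions at 1 GeV per nucleon (linear energy transfer near 151 keV per µm) or to a sham exposure. The arrays comprised iron day 1 (3 arrays), iron day 3 (3 arrays), iron days 7, 14 and 28 (2 arrays each) and sham (2 arrays from day 1 and 1 array from day 3, used as 1 group). Every group shared the strain, sex, age and the collagenase digestion of the heart with stepwise calcium, and the labels put calcium-tolerant cardiomyocytes at over 90% of the cells, with some inflammatory or endothelial cells possible. The sham arrays used here stop at day 3, so time and exposure cannot be told apart for days 7, 14 and 28, and the labels do not tie arrays to single mice, so p values measure the spread between arrays, which may be technical.

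Heat shock proteins are chaperones that keep other proteins folded. Hsp70 proteins bind and release unfolded chains in a cycle driven by ATP. DnaJ proteins (also called Hsp40) bring clients to Hsp70 and set off the cycle, and Hsp110 proteins such as Hsph1 end it by exchanging the nucleotide. Small heat shock proteins hold unfolding proteins without ATP and are abundant in heart muscle, where they associate with the contractile filaments. Under heat, oxidation or other protein damage, the transcription factor Hsf1 binds heat shock elements, inverted repeats of GAA, and raises a subset of these genes, among them Hspa1a, Dnajb1, Hsph1, Hsp90aa1 and Hspb1. Isolation of cells from a tissue is known to set off the same genes together with immediate early genes such as Fos and Jun.

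Promoter windows of 250 bases before to 50 bases after the transcript start, from RefSeq on build GRCm38.p6, were available for 52 of the 65 members. A heat shock element of 2 facing units was searched as GAANNTTC or TTCNNGAA, and one of 3 units as either of these followed by any 2 bases and the next alternating unit (GAA or TTC). The forms cover both strands, and each match of 3 units also holds matches of 2. At least 1 match of 2 units lay in 15 of the 52 members (28.8%), against 17.0% of all 27025 genes with a window. A match of 3 units lay in 4 of the 52 (7.69%), namely Hspd1, Hspe1, Dnajb6 and Hsph1, against 0.662% of all genes. A match describes the letters and is not shown to be a site. Hspd1 and Hspe1 lie back to back on chromosome 1, so that their windows share bases and are not independent.

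The stretches below show where the letters lie, and were picked because they hold a match; Dnajb1 had a window with no match, and Hsp90aa1 and Hspa8 had no window. Each is 80 bases long and given 5′ to 3′ on the gene's own strand, with the matches in capitals. The Hspa1a stretch (chr17:34972217-34972296, minus strand) holds 1 match, that of Hspb1 (chr5:135887769-135887848, plus strand) holds 2 apart from each other, and that of Dnaja1 (chr4:40722308-40722387, plus strand) holds 1. The Hsph1 stretch (chr5:149636337-149636416, minus strand) shows its match of 2 units, while its match of 3 units lies after the start and outside the stretch. In Hspe1 (chr1:55088023-55088102, plus strand) 3 overlapping matches of 2 units run together into 1 longer element.
Hspa1a: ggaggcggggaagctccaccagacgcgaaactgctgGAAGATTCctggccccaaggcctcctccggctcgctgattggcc
Hspb1: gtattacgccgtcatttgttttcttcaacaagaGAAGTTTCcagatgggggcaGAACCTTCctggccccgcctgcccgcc
Dnaja1: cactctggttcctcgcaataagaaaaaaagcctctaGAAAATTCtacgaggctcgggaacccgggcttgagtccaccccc
Hsph1: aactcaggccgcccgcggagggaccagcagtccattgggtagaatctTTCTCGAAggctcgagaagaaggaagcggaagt
Hspe1: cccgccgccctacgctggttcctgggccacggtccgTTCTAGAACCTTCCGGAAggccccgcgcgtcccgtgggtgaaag

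All values below are log2 signals as the authors deposited them, and differences are log2 differences, iron minus sham unless stated, with the standard error (SE) of a limma fit over 9969 genes. A gene was called when its Benjamini-Hochberg adjusted p, taken over all of those genes, was under 0.05. Signals of different probe sets are not on a common scale, so levels are compared between arrays and not between genes. Arrays correlated with each other at 0.964 to 0.989. The summed signal of 12 cardiomyocyte markers lay between 15.69 and 15.86 on every array, while markers of other cells differed between groups: 10 of 11 tested fibroblast markers, 7 of 9 macrophage markers and 8 of 12 endothelial markers were lower on iron day 3. Fewer cells of a type and less RNA per cell cannot be told apart in such data. Iron day 1 replicate 1 stood apart for several members. Calls against sham and late against early that rest on it are given with and without it, and those of the F test mostly as counts.

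The stress-inducible members Hspa1a and Dnajb1 had higher signals than sham on every array of iron days 3, 7 and 28, in no case past the test, and arrays of days 1 and 14 spread widely. Hspa1a, the main inducible cytosolic Hsp70, had log2 signals of 9.58, 9.47 and 9.57 in sham. It had 8.34, 10.16 and 10.60 on iron day 1, 10.46, 10.45 and 10.76 on day 3, 11.20 and 10.62 on day 7, 10.56 and 9.29 on day 14, and 10.91 and 10.88 on day 28. All arrays of days 3, 7 and 28 lay above all sham arrays, whereas days 1 and 14 each had an array above sham and an array below it. The difference was 1.02 on day 3 (SE 0.445, limma adjusted p = 0.161), 1.37 on day 7 (SE 0.497, adjusted p = 0.121) and 1.35 on day 28 (adjusted p = 0.167), none of them called. Without iron day 1 replicate 1, the same differences had adjusted p = 0.0222, 0.0196 and 0.025 and were called. With only the arrays compared in the fit, so that days 1 and 14 did not enter the spread, the adjusted p was 0.000508, 0.0236 and 0.000208.

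Hspa1b, a near-identical copy of Hspa1a, shared a probe set with it and was named alone on no probe set. That shared probe set differed from sham by 1.09, 1.46 and 1.55 on iron days 3, 7 and 28, close to the Hspa1a probe set, and signals of the copies cannot be told apart.

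Dnajb1, the main stress-inducible DnaJ partner of Hsp70, had log2 signals of 7.84, 8.00 and 8.17 in sham. It had 7.16, 8.88 and 9.43 on iron day 1, 9.58, 9.42 and 9.56 on day 3, 9.93 and 9.01 on day 7, 9.18 and 7.54 on day 14, and 9.27 and 9.45 on day 28. As for Hspa1a, days 3, 7 and 28 lay wholly above sham, and days 1 and 14 straddled it. The differences were 1.51 on day 3 (SE 0.486, adjusted p = 0.0716), 1.46 on day 7 (adjusted p = 0.128) and 1.36 on day 28 (adjusted p = 0.198), and none was called. On day 3 the adjusted p was 0.0122 without iron day 1 replicate 1, 0.0468 without iron day 1 replicate 3 and 0.0496 without either day 14 array, and on day 7 it was 0.0403 without iron day 1 replicate 1. With only the arrays compared it was 0.000162 on day 3 and 0.00252 on day 28, and with array weights 0.00974 and 0.00852, all called. The within-group standard deviations of Dnajb1 and Hspa1a, 0.720 and 0.659, were at percentiles 99.7 and 99.6 of all tested genes.

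Hsph1, the inducible Hsp110 and nucleotide exchange factor of Hsp70, was called on day 7. Its log2 signals were 7.07, 7.03 and 7.76 in sham, 6.69, 7.17 and 7.48 on iron day 1, 7.31, 7.02 and 7.26 on day 3, 8.69 and 8.04 on day 7, 7.53 and 7.41 on day 14, and 8.23 and 8.28 on day 28. Days 7 and 28 lay above all sham arrays and the other days did not, as was also so for Hsp90aa1 and Hspa8. Hsph1 rose on iron day 7 by 1.08 (SE 0.250, adjusted p = 0.0309), a fold of 2.11, and it was the 1 member of 54 called on that day, when 4.6% of all genes were called (1.94% higher, 2.67% lower). The call was lost without iron day 7 replicate 1 (0.749, adjusted p = 0.219) and without sham day 1 replicate 1 (adjusted p = 0.0852) or replicate 2 (adjusted p = 0.0899), and with only the arrays compared (adjusted p = 0.148). On day 28 the difference was 0.97 (SE 0.250, adjusted p = 0.0666), which passed without the sham day 3 array (1.21, adjusted p = 0.0124), without iron day 1 replicate 1 (adjusted p = 0.0375) and without iron day 7 replicate 1 (0.0488) or replicate 2 (0.0489).

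**Figure D1:**
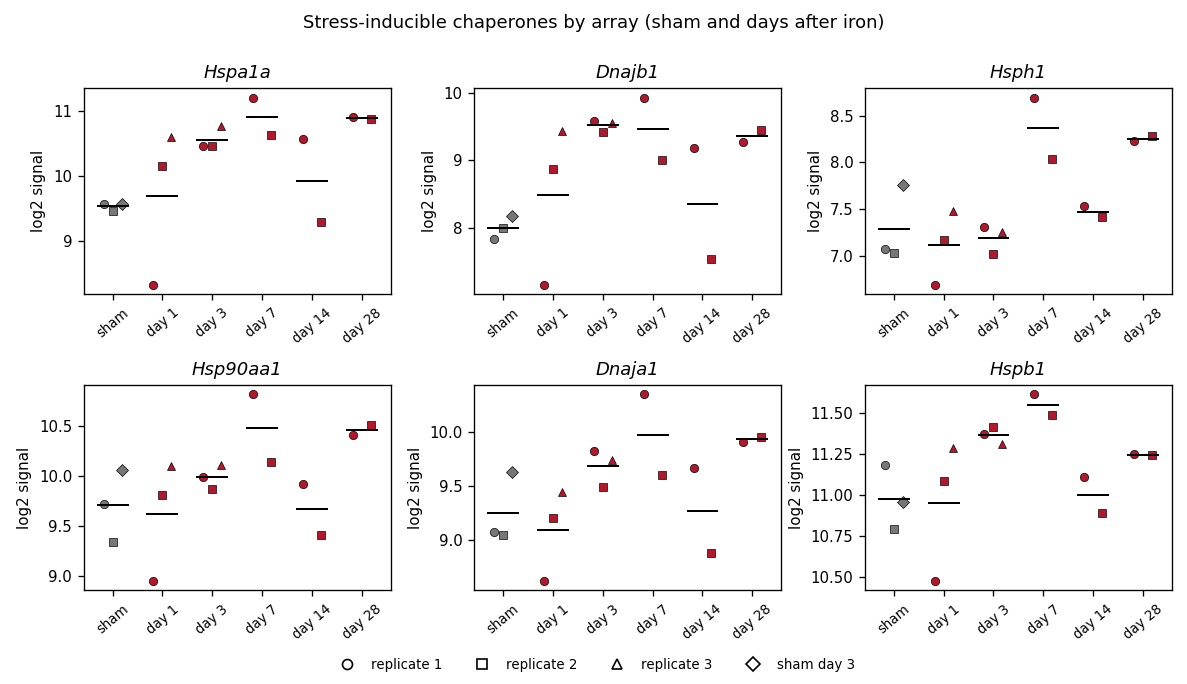
Log2 signal (vertical axis) of 6 stress-inducible members on 15 arrays, by sham and day after iron (horizontal axis). Each point is an array, bars are group means, and marker shapes give the replicate number. Iron day 1 replicate 1 is the lowest array and iron day 7 replicate 1 the highest in all 6 panels, and the 2 day 28 arrays lie close together.

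Hsp90aa1, the inducible cytosolic Hsp90, had 10.82 and 10.15 on iron day 7 and 10.41 and 10.52 on day 28, against 9.72, 9.35 and 10.06 in sham. Both days lay above all sham arrays, with differences of 0.78 (adjusted p = 0.136) and 0.76 that were not called. With array weights Hsp90aa1 was called on day 28 and by the F test, and without iron day 1 replicate 1 by the F test. Its other 2 single-symbol probe sets gave 0.75 and 0.78 on day 7. Hsp90ab1, the constitutive form, was not named alone on a probe set and is not analysed here.

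Dnaja1, a cytosolic DnaJ that works with Hsp70 and Hsc70, had 10.36 and 9.60 on iron day 7 and 9.91 and 9.96 on day 28, against 9.07, 9.04 and 9.63 in sham. The day 7 arrays overlapped the highest sham array and the day 28 arrays did not. The differences of 0.73 (adjusted p = 0.144) and 0.69 were not called; a second Dnaja1 probe set gave 1.10 and 1.03.

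Hspb1, the small heat shock protein known as Hsp27 in people and Hsp25 in mice, had 11.61 and 11.48 on iron day 7 and 11.37, 11.41 and 11.31 on day 3, against 11.18, 10.79 and 10.96 in sham. Both days lay above sham, by 0.57 and 0.39, and neither was called with all arrays. Without iron day 1 replicate 1, which had the lowest Hspb1 signal of the 15 at 10.48, Hspb1 was called on day 3 (adjusted p = 0.0216) and day 7 (adjusted p = 0.0139).

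These genes moved together from array to array. Hspa1a was taken as the anchor after its values were seen, and its signal was correlated with that of each of the other 9968 tested genes over 15 arrays. The first 4 genes by Pearson's r were all members: Dnajb1 (r = 0.956), Hsp90aa1 (0.906), Hspb1 (0.894) and Dnaja1 (0.893). The permutation p (two-sided, 100000 resamples) was 1e-05 for Dnajb1 and Hsp90aa1 and 2e-05 for Hspb1 and Dnaja1. The smallest p that this resampling can give is 1e-05. After adjustment over the 9968 genes each gave 0.0285, and 7 genes in all passed the threshold of 0.05. The 15 arrays were shuffled without regard to group, so this p also takes in differences between groups. By Spearman's rho the adjusted permutation p was 0.0498 for Hsp90aa1 (rho = 0.932) and Dnaja1 (0.871), and 0.178 for Dnajb1 (0.829) and 0.29 for Hspb1 (0.771). Hspd1 ranked 7th by r (0.830, permutation p adjusted 0.125), Dnaja4 54th, Hsph1 59th and Dnajb4 65th.

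The correlation was also present within groups. After the mean of each group was removed, r was 0.971 for Dnajb1, 0.875 for Hsp90aa1, 0.878 for Hspb1 and 0.802 for Dnaja1. A further run left out the 2 arrays farthest from the median Hspa1a signal, iron day 1 replicate 1 and iron day 14 replicate 2. With group means kept, r was then 0.933 for Dnajb1, 0.816 for Hsp90aa1, 0.772 for Hspb1 and 0.809 for Dnaja1. A measure of likeness between genes on shared arrays also takes in what the arrays share in RNA quality, handling or cell makeup.

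Immediate early genes, which tissue digestion can set off, were called against sham on iron day 3. Of 12 such genes on the array 11 were tested, and 3 of them (Atf3, Dusp1 and Jun) were higher on iron day 3, by 1.77, 0.98 and 0.92. The log2 of their summed signal ranged from 12.03 to 12.50 in sham, 12.08 to 12.67 on iron day 1, 13.07 to 13.34 on day 3, 12.47 to 13.69 on day 7, 11.95 to 12.39 on day 14, and 12.76 to 12.76 on day 28. In this sum, which was not tested, the arrays of days 3 and 28 lay above all sham arrays, and no single gene of the list was called on day 28. Whether handling of the cells has a part in the differences of the inducible members was not tested.

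**Figure D2:**
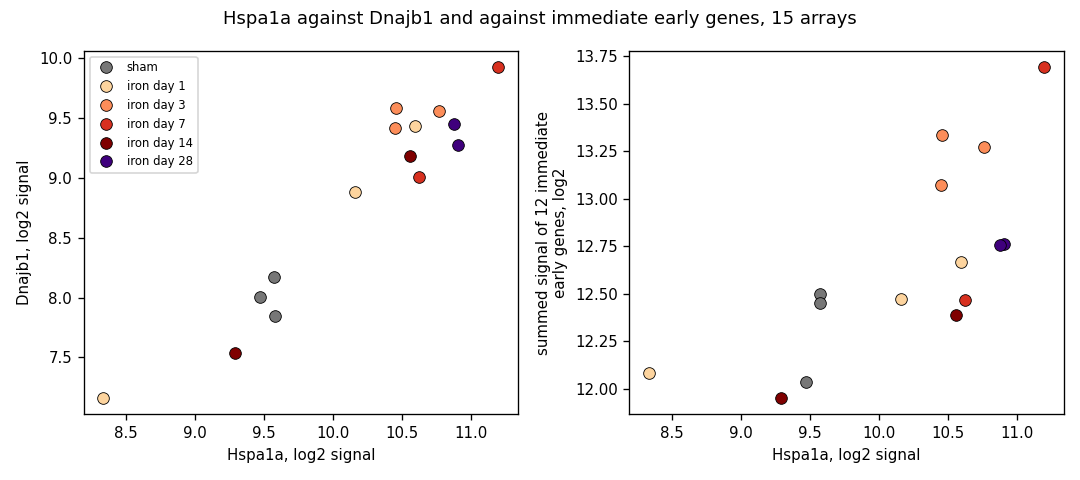
Hspa1a log2 signal (horizontal axes) against Dnajb1 log2 signal (left) and against the log2 summed signal of 12 immediate early genes (right) on 15 arrays, coloured by sham and iron day. Dnajb1 follows Hspa1a closely over its whole range (r = 0.956), including the spread between arrays of iron days 1 and 14, and the immediate early sum is highest on iron day 3 and on 1 array of day 7.

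On iron day 3, 3 of the 54 tested members were called higher and none lower. The members called higher made up 5.56%, beside 2.79% of all 9969 genes, and no member was called lower, beside 5.25%. In either direction the shares were 5.56% of members and 8.03% of all genes. At an unadjusted p under 0.05 there were 15 members, 27.8%, against 27.2% of all genes. The 3 were Dnaja4, Dnajc24 and Dnajc30. The median member difference was 0.12, beside 0.04 over all genes, and differences ran from -0.35 (Dnajc10, an endoplasmic reticulum reductase) to 1.51 (Dnajb1).

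Dnaja4, a cytosolic DnaJ related to Dnaja1, had log2 signals of 9.37, 9.37 and 9.33 on iron day 3, against 8.58, 8.53 and 8.42 in sham. The 3 day 3 arrays lay close together and above every other array of the series. Dnaja4 rose by 0.85 (SE 0.151, adjusted p = 0.00827), a fold of 1.80, and it stayed called without any single array. It was not called when the replicate number was a block and the sham day 3 array left out (0.77, adjusted p = 0.074). On other days Dnaja4 differed from sham by 0.38 (day 1), 0.39 (day 7), 0.22 (day 14) and 0.42 (day 28), none called.

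Dnajc24, which acts in making diphthamide, a modified residue of elongation factor 2, had 6.85, 6.95 and 6.90 on iron day 3, against 6.63, 6.45 and 6.40 in sham. Dnajc30, a mitochondrial DnaJ protein, had 8.99, 9.21 and 9.26 on day 3, against 8.84, 8.85 and 8.53 in sham. In both genes the day 3 arrays lay above all sham arrays, by a small margin. They rose by 0.41 each (SE 0.101, adjusted p = 0.0282, and SE 0.114, adjusted p = 0.0432). The Dnajc24 call was lost without sham day 1 replicate 2 (adjusted p = 0.0626), sham day 3 (0.0968), or iron day 3 replicate 1 (0.0656), 2 (0.105) or 3 (0.072). The Dnajc30 call was lost without iron day 1 replicate 2 (0.0545), iron day 3 replicate 1 (0.0544), 2 (0.136) or 3 (0.13), either day 28 array (0.065 each), sham day 1 replicate 1 (0.0761) or sham day 3 (0.152), and with only the arrays compared (0.0533). Both calls were lost with each array centred on its median (0.0543 for Dnajc24 and 0.0762 for Dnajc30) and over all probe sets (0.0559 and 0.071). With the replicate block, and without the sham day 3 array, the differences were 0.33 for Dnajc24 (adjusted p = 0.206) and 0.24 for Dnajc30 (adjusted p = 0.28).

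Counted by arrays rather than by p, 17 of the 54 members had all iron day 3 arrays above all sham arrays and 3 had all below, beside 19.8% and 15.8% of all tested genes. Besides those above, Dnajb4, a DnaJ protein found in muscle, had 10.81, 10.67 and 10.59 on day 3, against 10.16, 10.07 and 10.42 in sham (difference 0.47, adjusted p = 0.0619). It was called without iron day 1 replicate 1 (adjusted p = 0.0238) or without day 7 replicate 1 (0.0413) or replicate 2 (0.0412). Hspa12a, a distant relative of Hsp70, had 6.76, 6.96 and 6.96, against 6.56, 6.66 and 6.54 in sham (difference 0.31, not called with all arrays). It was called without day 14 replicate 1 (adjusted p = 0.0459) or replicate 2 (0.046) and with array weights (0.0217).

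Of the 8 members whose symbol starts with Hspb, 6 were tested. Of these 6, Hspb7 and Hspb3 were lower on the late iron days (7, 14 and 28) than on the early ones (1 and 3). Beside them, 22% of all genes were called in this contrast and 11.7% were called lower. Hspb7, the cardiovascular small heat shock protein, had 11.45 and 11.55 on iron day 7, 11.68 and 11.58 on day 14, and 11.42 and 11.36 on day 28, against 11.73, 11.80 and 11.83 on iron day 1 and 11.82, 11.82 and 11.78 on day 3. Sham stood at 11.84, 11.76 and 11.63, and every late array lay below every early one. The late minus early difference was -0.29 (SE 0.042, adjusted p = 0.000758), a fold of 0.818, and it was called under all 9 alternatives and without any single array.

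Against sham, Hspb7 fell by 0.35 on day 28 (SE 0.0661, adjusted p = 0.0159) and it was the 1 member called of 54 on that day, beside 2% of all genes (1.41% higher, 0.582% lower). The day 28 call was lost without iron day 28 replicate 1 (adjusted p = 0.132) or replicate 2 (0.227), sham day 1 replicate 1 (0.0784) or replicate 2 (0.0686), without an intensity trend (0.0576), over all probe sets (0.0531) and with only the arrays compared (0.0545). On day 7 the difference was -0.24 (adjusted p = 0.0551), which passed without the sham day 3 array (-0.30, adjusted p = 0.0256). By the F test over sham and all iron days Hspb7 had the smallest adjusted p of the members, 0.00602; 6 members passed this test (Hspb7, Hsph1, Dnaja4, Dnajc28, Dnajc18 and Hspb3), 11.1% of those tested beside 18.7% of all genes.

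Hspb3, a muscle small heat shock protein that pairs with Hspb2, had a lowest, median and highest log2 signal of 5.64, 5.91 and 6.69 on the 6 late arrays, against 6.02, 6.50 and 6.95 on the 6 early arrays. The late arrays of days 7 and 28 lay below all early ones, and those of day 14 did not. Hspb3 fell late by 0.47 (SE 0.137, adjusted p = 0.0273), a call lost without any of 7 arrays in turn, with adjusted p of 0.0507 to 0.0752: iron day 1 replicates 2 and 3, day 3 replicate 3, day 7 replicate 1, day 14 replicate 2 and both of day 28. It was also lost over all probe sets (0.0571) and with the replicate block (-0.37, adjusted p = 0.0687). Hspb2 and Hspb6 (Hsp20) had late minus early differences of -0.35 and -0.17, not called, and Hspb8, which works with Bag3, had -0.02.

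Hspb7 and Hspb3 are muscle proteins. Of 12 cardiomyocyte markers 4 (Actn2, Mybpc3, Ryr2 and Tnnt2) were called lower late than early, by 0.09 to 0.24, beside 11.7% of all genes. The others were not called in either direction. The median difference of the 12 was -0.06, beside -0.03 over all genes. The summed log2 signal of the 12 was 15.69 to 15.79 on late arrays, against 15.79 to 15.86 on early arrays. Over the same contrast 9 of 11 fibroblast markers, 7 of 9 macrophage markers, 3 of 12 endothelial markers and 3 of 3 tested lymphocyte markers were higher late. The summed fibroblast signal was 11.6 to 12.4 on late arrays, against 11.1 to 12.3 on early arrays, and the macrophage signal was 10.9 to 12.5 late, against 10.1 to 11.3 early. No marker is at 0 on an array scale, and the part of cell makeup in the chaperone differences was not tested.

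Late against early, 7 of 54 members were called, 2 higher and 5 lower, 13% beside 22% of all genes (10.3% higher, 11.7% lower). Without iron day 1 replicate 1, Dnaja4, Dnajb4, Dnajc7, Dnajc12, Hspb2 and Hspb6 were called as well, which gave 13 members. Calls over all genes rose too, to 2649 without that array from 2194 with all arrays. Of the 7 called with all arrays, the 2 higher were an Hsp110 and an Hsp70 protein. Hsph1 had a lowest, median and highest of 7.41, 8.13 and 8.69 late, against 6.69, 7.21 and 7.48 early, and rose by 0.88 (SE 0.158, adjusted p = 0.00261), a call that held under all 9 alternatives and without any single array. Hspa8, the constitutive Hsc70, had 11.65 to 11.90 late with a median of 11.86, against 11.53 to 11.76 early with a median of 11.62, and rose by 0.16 (SE 0.0473, adjusted p = 0.0268).

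The Hspa8 call was lost without iron day 3 replicate 3 (adjusted p = 0.0631), day 7 replicate 1 (0.0574), day 14 replicate 2 (0.0508) or day 28 replicate 1 (0.055) or 2 (0.0701), and the difference was 0.10 (adjusted p = 0.17) with each array centred on its median. It was also lost with no filter (0.0542), no intensity trend (0.0618), all probe sets (0.084) and the replicate block (0.071). Hspa8 differed from sham by -0.11 on day 1, -0.01 on day 3, 0.17 on day 7, -0.03 on day 14 and 0.18 on day 28.

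Apart from Hspb7 and Hspb3, the lower members were DnaJ C proteins. Dnajc28, a DnaJ protein of little-known function, had 7.40, 7.72, 7.77, 7.73, 7.44 and 7.44 on the late arrays (day 7 to day 28), against 7.78, 8.02, 7.93, 8.07, 7.98 and 7.84 on the early arrays. No late array reached an early one, as for Hspb7, and no other tested member separated late from early in this way (2 of 54 all below and 0 all above, beside 2.57% and 1.77% of all genes). Dnajc28 fell by 0.36 (SE 0.0719, adjusted p = 0.00523). The sham arrays, 7.57, 7.79 and 7.64, stood between, so that Dnajc28 was 0.25 and 0.30 above sham on days 1 and 3 and 0.23 below it on day 28, none of these called.

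Dnajc18, a DnaJ protein of the endoplasmic reticulum membrane, had 6.47, 6.78, 6.71, 6.91, 6.70 and 6.65 late, against 7.01, 7.07, 7.11, 7.08, 7.19 and 6.90 early. A late array and an early array met near 6.9, and the rest stood apart. Dnajc18 fell by 0.36 (SE 0.0716, adjusted p = 0.00477); the Dnajc28 and Dnajc18 calls held under all 9 alternatives and without any single array. Dnajc16, also of the endoplasmic reticulum, had 7.42 to 7.89 late with a median of 7.68, against 7.76 to 8.05 early with a median of 7.88, and fell by 0.20 (SE 0.0639, adjusted p = 0.0472). That call was close to the threshold and was lost without any 1 array (adjusted p of 0.052 to 0.131) other than iron day 1 replicate 1, day 3 replicate 1, day 7 replicate 2 and day 14 replicate 2. It was also lost in 5 of the 9 alternatives: quantile normalization (0.0596), no filter (0.0683), all probe sets (0.0835), the replicate block (0.0821) and only the arrays compared (0.0654).

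**Figure D3:**
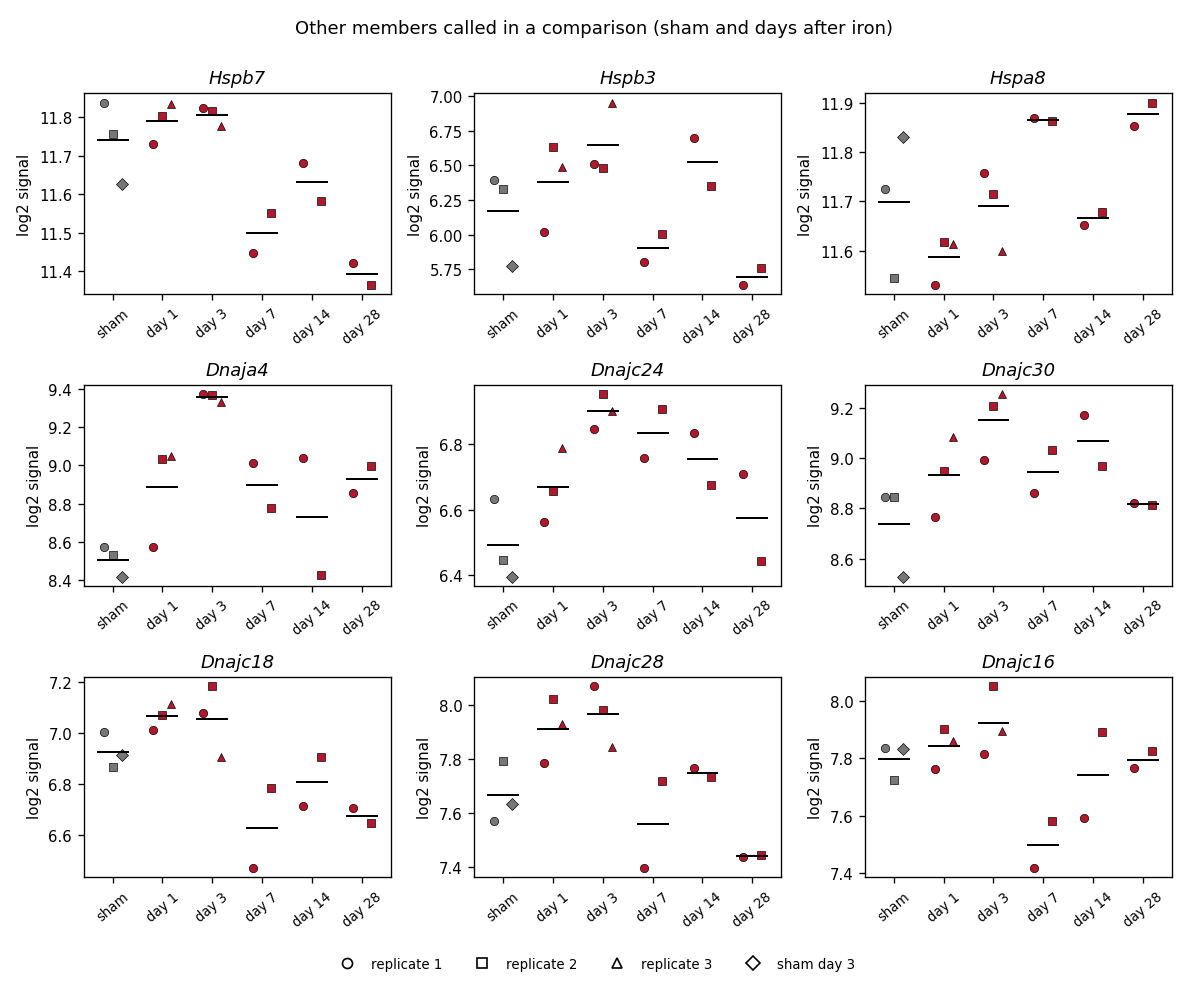
Log2 signal (vertical axis) of the other 9 members called in a comparison, on 15 arrays by sham and day after iron (horizontal axis); points are arrays, bars are group means and marker shapes give the replicate. Dnaja4 peaks on day 3 with arrays from 9.33 to 9.37, and Hspb7 and Dnajc28 show every array of days 7, 14 and 28 below every array of days 1 and 3.

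On iron day 1 no member was called by limma, beside 0.0602% of all genes, and 3 members had an unadjusted p under 0.05 (Dnaja4, Dnajc14 and Dnajc28, by 0.38, 0.20 and 0.25) beside 11% of all genes. Without iron day 1 replicate 1, Hspd1 was called on day 1, and also on day 3 (0.26, adjusted p = 0.0366) and day 7 (0.30, adjusted p = 0.047). All-gene calls without that array were 363 on day 1, 1080 on day 3 and 535 on day 7. With all arrays they were 6, 801 and 459 in that order. On iron day 14 no member was called, beside 0.833% of all genes (0.592% higher, 0.241% lower), and 7 had an unadjusted p under 0.05 beside 15.4%. The member with the smallest p on day 14 was Dnajc19, a subunit of the mitochondrial protein import motor whose loss in people causes cardiomyopathy (difference 0.49, SE 0.162, adjusted p = 0.181), then Dnajc10 (-0.36, adjusted p = 0.227).

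Of the other mitochondrial members, Dnajc30 was called on iron day 3 as given above, and those that follow were not called against sham with all arrays. Hspd1 and Hspe1, the chaperonin of the mitochondrial matrix and its lid, had differences of 0.16 and -0.21 on day 1, 0.26 and -0.19 on day 3, 0.30 and 0.27 on day 7, 0.19 and -0.11 on day 14 and 0.28 and -0.10 on day 28, none called with all arrays. Pseudogene copies of both exist, so their signals may hold more than 1 locus. Hspa9, the mitochondrial Hsp70, ran from 10.70 to 11.13 over the 15 arrays, Dnaja3 differed from sham by at most 0.12 in size, and Dnajc15, which sits at the inner membrane, by at most 0.22.

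Other Hsp70 relatives had small differences, none called with all arrays. Hspa4 and Hspa4l, Hsp110 proteins, had differences from sham of -0.14 to 0.04 and of -0.09 to 0.02 over the 5 days. Hspa13 and Hspa14, an endoplasmic reticulum and a ribosome-associated Hsp70, reached -0.22 and -0.16 on day 7. Hspa1l and Hspa2, best known from the testis, ran from -0.11 to 0.21 and from -0.21 to 0.38. Hspa2 had 6.04 and 5.86 on day 7, against 5.42, 5.31 and 5.95 in sham, and without the sham day 3 array it was called on day 3 (0.55, adjusted p = 0.0405) and day 7 (0.58, adjusted p = 0.0387). Dnaja2, Dnajb2 and Dnajb5, cytosolic DnaJ proteins, had differences within -0.22 and 0.23.

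**Figure D4:**
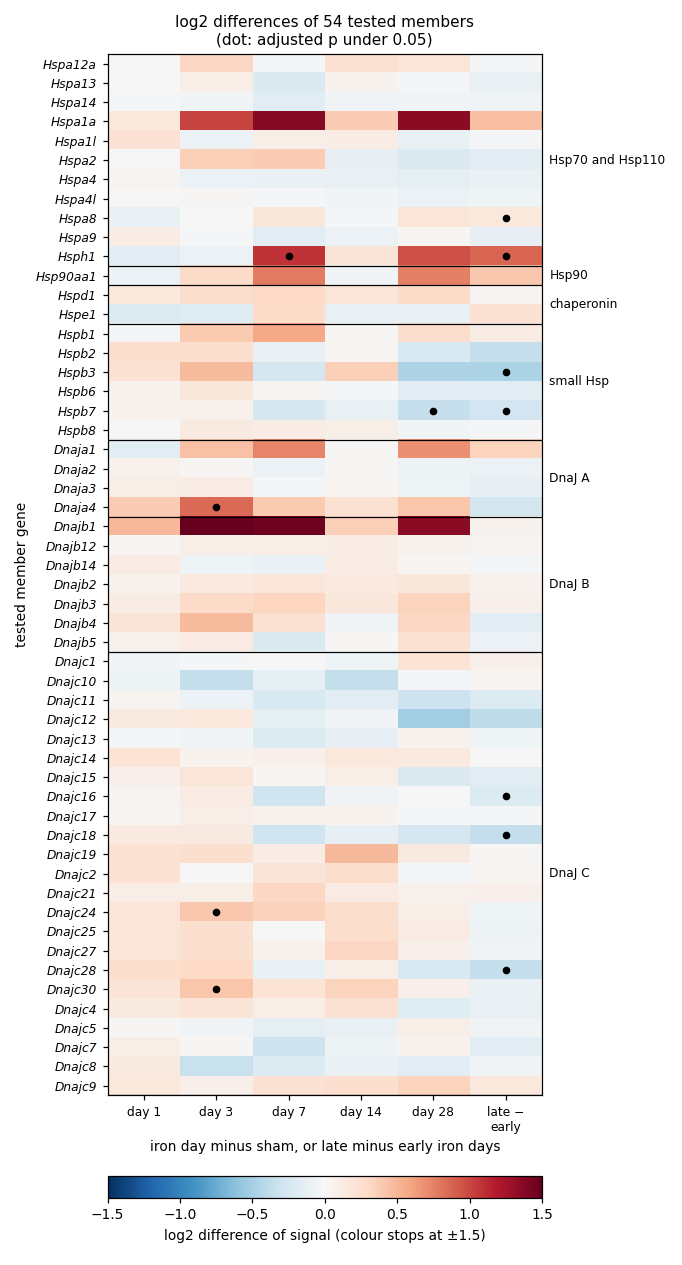
Log2 differences of the 54 tested members (rows, grouped by family), iron day minus sham for 5 days and late minus early iron days (columns); red is higher, blue is lower, colour stops at 1.5 in size, and dots mark an adjusted p under 0.05. The strongest reds are Dnajb1 on days 3, 7 and 28 and Hspa1a on days 7 and 28, at 1.35 to 1.51, and carry no dot, while the dots are few: 3 on day 3, 1 on day 7, 1 on day 28 and 7 in the last column.

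The 11 members below the signal filter were Dnajb6, Dnajb7, Dnajb8, Dnajb13, Dnajc5b, Dnajc5g, Dnajc6, Dnajc22, Hspa12b, Hspb9 and Hspb11. In a fit of all 19937 genes without the filter, 3 of them were called in at least 1 comparison, beside 1.34% of those genes on day 28, 11.7% late against early and 10.5% in the F test. Dnajc6, the neuronal auxilin that strips clathrin from vesicles, rose by 0.96 on day 28 (SE 0.140, adjusted p = 0.00329) and by 0.44 late against early. Dnajb6, a chaperone against aggregation that is linked to muscle disease in people, differed late against early by -0.37 on its own probe set and by 0.04 to 0.09 on 3 probe sets shared with a related locus, so the sets disagree. Hspb9 differed by -0.23 late against early. Hspa12b differed from sham by -0.32 to 0.14, and none was called.

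Of 57 other chaperone and co-chaperone genes (the cytosolic chaperonin, prefoldin, Bag proteins, Hsp90 co-chaperones and endoplasmic reticulum chaperones), 55 were on the array and 54 tested. By limma 0 were called on days 1 and 14, where 1 and 5 had an unadjusted p under 0.05, beside 11% and 15.4% of all genes. On iron day 3, 1 was called, beside 8.03% of all genes: Bag3, an Hsp70 co-chaperone that binds small heat shock proteins and is induced with them, had 9.54, 9.86 and 9.70, against 9.13, 9.17 and 9.37 in sham, and rose by 0.47 (SE 0.109, adjusted p = 0.0224). On iron day 7, 1 was called beside 4.6% of all genes, Sdf2l1, an endoplasmic reticulum stress gene, higher by 1.00 (SE 0.165, adjusted p = 0.00789). On day 28, 2 were called beside 2% of all genes, Sdf2l1 higher by 0.89 and Serpinh1, the collagen chaperone, higher by 0.95. Late against early, 6 were higher (Sdf2l1 0.90, Serpinh1 0.51, Hsp90b1 0.34, Hyou1 0.30, Ptges3 0.29 and St13 0.23) and 2 lower (Bag2 -0.42 and Hsf2 -0.30), beside 10.3% of all genes higher and 11.7% lower. Serpinh1 is abundant in fibroblasts, whose markers were higher late than early as given above. On day 28 the summed fibroblast signal was 12.31 to 12.36, against 12.39 to 12.52 in sham. The part of fibroblasts in the Serpinh1 differences was not tested. Cryab, the small heat shock protein most known in heart, ran from 11.66 to 11.97 over the 15 arrays and was not called.

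On iron days 7, 14 and 28 the members whose arrays lay wholly above sham numbered 16, 10 and 17 of 54, beside 15.3%, 13.7% and 25.7% of all genes, and those wholly below numbered 11, 3 and 11, beside 22.5%, 17% and 19.4%. On day 1 they numbered 5 above and 1 below, beside 7.59% and 5.8%. The median member difference was 0.08, 0.04, 0.04 and 0.04 on days 1, 7, 14 and 28, beside 0.03, -0.03, -0.02 and 0.02 over all genes.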

How the data were processed

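RNA of 15 samples was hybridised to gene-level arrays. The deposited values of 34760 probe sets are log2 signals normalized by the authors (0.234 to 13.01); the submitters' processing notes name MAS5, with its version not given in the sources used here. Probe sets had 1 symbol (21640), several (1321) or none (11799). The 9969 of 19937 genes with a mean log2 signal of at least 5.51 were tested by a linear model in limma 3.58.1 (R 4.3.3): 6 group means, moderated variances with an intensity trend, 9 residual degrees of freedom. Tests were 5 iron days minus sham, days 7, 14 and 28 minus days 1 and 3, and an F test. The number of arrays limits the precision.

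On simulated data of 9969 genes, day 3 minus sham recovered 93 of 100 differences of size 1 and 65 of 100 of size 0.5 (91 and 52 for day 28), with 6 and 10 false calls. These counts were not split by the spread of a gene. Recovery at a spread as wide as that of Dnajb1 and Hspa1a (within-group standard deviations 0.720 and 0.659) was not tested. The counts therefore do not apply to the uncalled differences of Dnajb1 and Hspa1a.

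Members, lists and tests were chosen with earlier results of these data known. Values are given for members called, for a list of well-known members and for the 2 smallest p values of each test; other genes of the pathway come from a list of 57. Chosen after the members' values were seen, outside that rule: Hspa1a as the anchor of the correlations, the motif search, the stretches printed and the genes plotted.

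Replicate numbers were not used as pairs in the main fit. Residuals of arrays with the same number correlated from -0.39 to 0.57 (31 pairs, median 0.062). Those of arrays with other numbers correlated from -0.57 to 0.49 (50 pairs, median -0.029). In groups of 2 arrays the residuals are equal and opposite, so these values cannot settle whether the numbers pair the arrays. Results were recomputed with each array centred on its median, after quantile normalization, with a stricter filter or none, with array weights, without the trend, over all probe sets, with sham day 1 alone, with only the arrays compared, with the replicate number as a block, and without each array in turn. Python 3.11.15 with numpy 2.4.6, pandas 2.3.3, scipy 1.17.1 and matplotlib 3.10.9 was used for tables, permutations and plots. Proton-exposed samples were not analysed here.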

Additional observations from a re-analysis of the deposited data

Results flagged for a closer look

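For 7 members, the signal on late iron days (7, 14 and 28) differed from that on early iron days (1 and 3) by the test of late minus early. Sham cancels from this contrast, and the sham arrays stop at day 3, so time and exposure cannot be told apart in it. Late minus early was 0.88 for Hsph1 and 0.16 for Hspa8, both higher late. It was -0.29 for Hspb7, -0.47 for Hspb3, -0.36 for Dnajc18, -0.36 for Dnajc28 and -0.20 for Dnajc16, all lower late. Beside them 22% of all tested genes were called in this contrast.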

How the results depend on the processing

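No member's difference changed direction under an alternative where it had been called. On day 3, 3 members were called, but 1 with median centring, 11 with array weights, 1 with all probe sets, 0 with the replicate block and 6 with only the arrays compared. On day 7 (1 called) there were 2 with quantile normalization, 5 with median centring (1 higher, 4 lower), 3 with the replicate block and 3 with sham day 1 alone. All-gene calls were 459 in the main fit and 443, 1270, 361 and 413 in that order. On day 28 (1 called) there were 2 with no filter, 0 with no trend, 17 with array weights, 2 with the replicate block, 2 with only the arrays compared and 2 with sham day 1 alone. All-gene calls were 199 in the main fit and 268, 193, 2448, 395, 208 and 477 in that order. Late against early (7 called) there were 13 with median centring (1 higher, 12 lower), 12 with array weights and 4 with the replicate block. All-gene calls were 2194 in the main fit and 2991, 2538 and 1444 in that order. The F test (6 called) gave 10 with quantile normalization, 10 with median centring and 23 with array weights. All-gene calls were 1860 in the main fit and 1927, 2760 and 4259 in that order. The causes were not tested.

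Leaving out 1 array gave 0 to 1 calls on day 1, 1 to 8 on day 3, 0 to 5 on day 7, 0 to 0 on day 14, 0 to 3 on day 28, 4 to 13 late against early and 2 to 14 in the F test. The highest count of each range above 0 came without iron day 1 replicate 1. The lowest came without any iron day 3 array on day 3, without iron day 7 replicate 1 or either sham day 1 array on day 7, without either day 28 or either sham day 1 array on day 28, without iron day 3 replicate 3, day 7 replicate 1 or either day 28 array late against early, and without iron day 3 replicate 1 or 2 or either day 28 array in the F test. Besides, there were 5 on day 3 without either day 14 array, 3 on day 7 without sham day 3, 2 on day 28 without either day 7 array or sham day 3, and 12 late against early without day 7 replicate 2. All-gene calls also rose without iron day 1 replicate 1. They went from 6 to 363 on day 1, 801 to 1080 on day 3 and 459 to 535 on day 7. They went from 199 to 274 on day 28, 2194 to 2649 late against early and 1860 to 2273 in the F test. Median centring moved the median of all genes by -0.11 on day 28, and took the share of higher calls over all genes to 38% on day 28 against 70.9% uncentred, 15% against 42% on day 7, 22.9% against 34.7% on day 3 and 27.6% against 46.8% late against early. The block was fitted without the sham day 3 array, so that this array's absence and the block act together. The number of arrays limits all counts.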
